A study of Mus musculus with 6 samples.

Results

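The genes described here are those of the major histocompatibility complex (MHC) and its antigen presentation machinery, in the modiolus of the mouse cochlea after loss of spiral ganglion neurons (SGNs), the primary auditory neurons. They were chosen by symbol only: every protein-coding gene of GENCODE M21 (GRCm38) whose symbol begins with H2-, which makes 34 genes, and 7 partners, namely B2m, Tap1, Tap2, Tapbp, Cd74, Ciita and Nlrc5. Of these 41 genes, 37 lie on chromosome 17, and 29 belong to class I, 11 to class II and 1, H2-Ke6, to neither. The series holds counts for 33676 genes, among them 33 of the 41, and 22 of the 41 had counts high enough to be tested.

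MHC class I molecules sit on nearly every nucleated cell and display peptides made in the cytosol, which Tap1 and Tap2 pump into the endoplasmic reticulum and tapasin (Tapbp) helps to load onto a heavy chain paired with beta-2-microglobulin (B2m). MHC class II molecules are made mainly by dendritic cells, macrophages and B cells, where the invariant chain (Cd74) guides the paired alpha and beta chains to endosomes and the H2-DM and H2-O chains govern the exchange of peptides. Nlrc5 is the transcriptional activator of class I and Ciita that of class II. In the cochlea, macrophages lie among the SGNs and along the auditory nerve, and neurons themselves usually hold little MHC.

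The tissue was the cochlear modiolus, the axis of bone that houses the SGNs, and its RNA was sequenced from C57BL/6 mice (the design text calls the controls wild type), in 3 control libraries (replicates C1 to C3 in the labels) and 3 degenerated libraries (T1 to T3). According to the methods, the mice were 8-week-old males, the control group received saline, and the degenerated group received kanamycin at 1 g/kg and then furosemide at 0.4 g/kg, a drug pair that kills hair cells. The labels give no time after injection, and the paper places the transcriptomes on day 30. The labels call the cell type spiral ganglion neuron, but the tissue taken was the whole modiolus and not sorted neurons, and how many mice went into a library is not stated in the labels or methods. Nothing in the labels ties a library to one animal, so that p-values measure the spread between these libraries, which may be technical. In such bulk RNA, fewer cells of a type and less RNA per cell cannot be told apart.

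The table lists raw counts for 65535 transcripts, 46.0% of the annotated ones, and 31.6% of those on chromosome 17. Whether the list of transcripts is complete is not stated, so that a transcript without a row is unmeasured here and not shown to be absent from the tissue. The values below are sums over a gene's listed transcripts, and B2m, H2-DMa, H2-Oa, H2-Q2, H2-Q10, H2-M1, H2-M9 and H2-M10.3, which had none, are not analysed here. Libraries held 12480876 to 15549319 counts. Normalized expression is given as CPM, the counts of a gene scaled to a common library size. The 13 SGN markers were all listed and tested, with 4 higher and 9 lower in the degenerated group. They summed to 12234 to 15610 CPM in the control group against 7437 to 10801 CPM in the degenerated group, with Calb2 and Pvalb downregulated. Calb2 lost that call without any 1 library other than degenerated replicate 2, and Pvalb without any 1 control library. Both also lost it with the replicate number as a block, with log2 fold changes of -1.07 and -0.84, and Calb2 with a filter on the mean count (-1.07). Of 9 hair cell markers, 8 were tested, 1 higher and 7 lower, and Ocm and Slc26a5 were downregulated, by 5.83 and 5.11 on the log2 scale. In the other tested hair cell markers the groups overlapped, with log2 fold changes from -3.9 for Atp2b2 to 0.15 for Myo7a. Over all tested genes 0.715% were downregulated. The libraries also held RNA of blood and marrow in very different amounts: granulocyte markers summed to 260 CPM in control replicate 1, 13050 in control replicate 2 and 6476 in control replicate 3, and to 616, 1873 and 4588 in degenerated replicates 1, 2 and 3. B cell markers summed to 13.8, 406 and 100 CPM in controls and to 48.8, 48.2 and 234 in degenerated libraries.

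Promoters are printed for 1 class I and 3 class II genes followed below, because they hold the short elements through which MHC genes are known to be controlled. RefSeq promoters (GRCm38.p6) were matched by symbol for 33 class I and class II genes, and the 250 bases before the start were searched on both strands for the Y box (GATTGG), the kappa-B site of enhancer A (GGGGATTCCCC), the X box (AGCAACNNATGATG) and an interferon response element (GAAANNGAAA). The letters were read from the promoters of H2-Aa, H2-Q6, H2-Eb1 and B2m, in that order, with 2 free positions (N) in the latter pair, so that those genes match by construction. The stretches run 5′ to 3′ on the gene's own strand and end at the start of transcription, or 2 bases before it in H2-Ob, with matches in capitals (CCAATC is the Y box read on the other strand).
H2-Q6 (chr17:35424670-35424849, plus strand): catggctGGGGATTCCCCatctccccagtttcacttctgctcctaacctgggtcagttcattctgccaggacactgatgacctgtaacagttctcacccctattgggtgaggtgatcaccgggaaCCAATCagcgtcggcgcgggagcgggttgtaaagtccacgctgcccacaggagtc
H2-Aa (chr17:34287824-34287943, minus strand): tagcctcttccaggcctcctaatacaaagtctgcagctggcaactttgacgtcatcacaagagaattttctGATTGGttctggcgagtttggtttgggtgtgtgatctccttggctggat
H2-Eb1 (chr17:34305747-34305866, plus strand): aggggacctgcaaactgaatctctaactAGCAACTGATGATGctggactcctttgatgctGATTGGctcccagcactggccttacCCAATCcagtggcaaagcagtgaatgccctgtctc
H2-Ob (chr17:34238785-34238902, plus strand): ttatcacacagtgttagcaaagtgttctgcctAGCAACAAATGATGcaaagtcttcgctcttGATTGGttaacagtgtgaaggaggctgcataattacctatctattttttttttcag

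The Y box letters were found in 8 of the 8 class II promoters and in 18 of the 25 class I promoters, against 14.6% of all 32851 promoters searched. They were counted at any position, from 6 bases before the start in H2-K1 to 222 in Tap1. The class II genes H2-Ab1, Cd74 and Ciita were not among the promoters searched. The exact kappa-B site was in H2-K1, H2-D1 and H2-Q6, and in 10 promoters in all (0.0304%). The X box letters were in H2-Eb1 and H2-Ob, 2 of the 3 promoters that held them (0.00913%), and the interferon element was in B2m, H2-T22 and H2-T23, against 2.98% of all promoters. A match is a description of letters, and its absence says nothing of a factor.

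In levels per length, H2-D1 led the antigen presentation genes. On the scale of TPM (abundance per length, scaled to the same total in each library, computed here from the listed transcripts), H2-D1, a classical class I heavy chain, stood at 1214 ± 514 in controls (SD, n = 3), followed by Cd74 at 510 ± 74.8, H2-Aa at 432 ± 34.0, H2-Eb1 at 309 ± 56.2, Tapbp at 170 ± 22.9 and H2-Q4 at 140 ± 17.4 (SD, n = 3 each). Every control value of H2-D1 exceeded those of Cd74, and every control value of H2-Aa those of H2-Eb1. Cd74 and H2-Aa overlapped in controls, as did Tapbp and H2-Q4. In degenerated libraries the order of these 6 means was the same, with H2-D1 at 860 ± 210 TPM and Cd74 at 675 ± 148 TPM (SD, n = 3 each), whose values now overlapped. The other tested members had mean TPM from 0.272 for H2-Eb2 to 77.9 for H2-Ke6 in controls. These levels hold for listed transcripts only. For H2-K1, H2-Ab1, H2-T23 and Tap1 the listed part was minor or retained-intron transcripts, so that their low levels are not those of the gene.

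**Figure D1:**
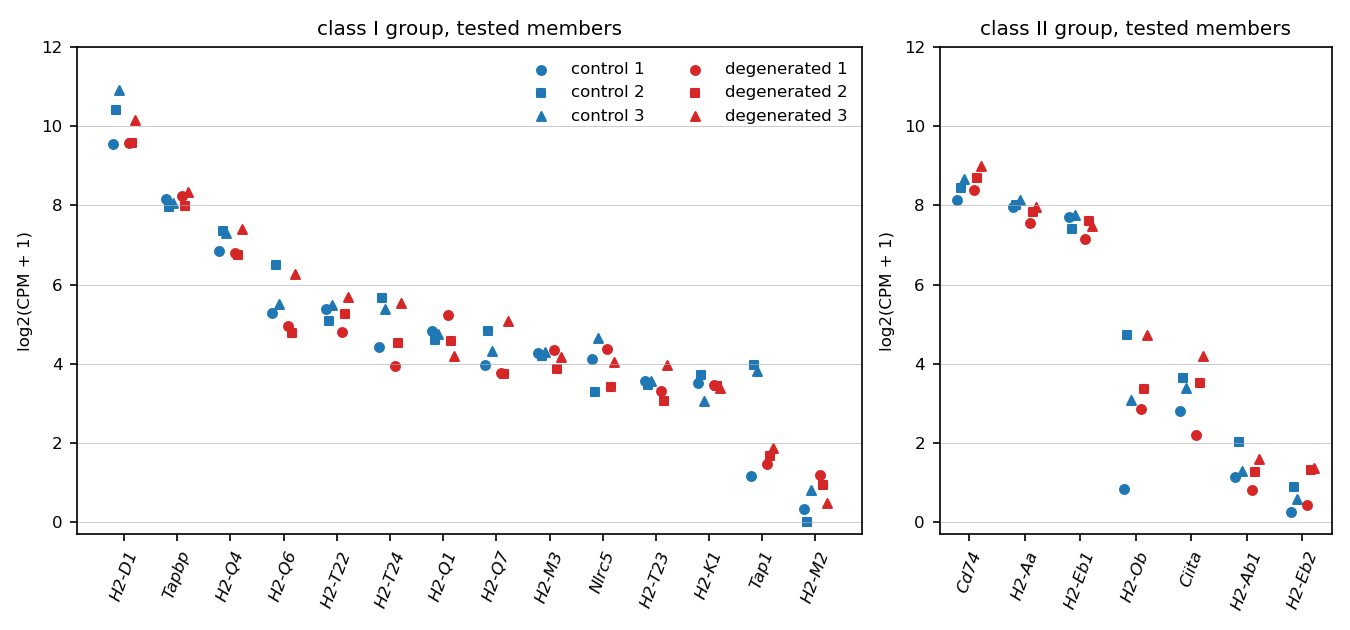
Log2(CPM + 1) of each tested class I and class II gene in each library (blue, control; red, degenerated; the marker shape gives the replicate), ordered by mean level. H2-Aa, summed over its listed transcripts, is the 1 gene whose degenerated libraries all lie below its controls, and the other genes overlap between the groups.

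No antigen presentation gene passed the test between degenerated and control libraries. Of the 22 tested, 0 met the criteria used for this comparison, log2 fold change beyond 0.2 in either direction at an unadjusted p below 0.01 in edgeR's quasi-likelihood test, against 2.73% of the 14118 genes tested (2.01% upregulated and 0.715% downregulated). After Benjamini-Hochberg adjustment over all genes, 0 members passed an adjusted p of 0.05 with edgeR, DESeq2 or limma-voom, and the smallest adjusted p with edgeR was 0.516, for Tap1. With edgeR and limma-voom 0 of all genes passed it too (the smallest with edgeR was 0.0719), so that this count says nothing particular of the members, while with DESeq2 266 genes passed as higher and 122 as lower. At an unadjusted p under 0.05 there was 1 member, Tap1, in edgeR's test and in DESeq2 and 0 in limma-voom, against 9.68% of all genes with edgeR (6.08% higher and 3.6% lower). In the class I group, 2 of 14 tested genes were higher and 12 lower, with a median log2 fold change of -0.10. In the class II group 4 of 7 were higher and 3 lower, with a median of 0.23, and over all genes the median was -0.003 with 50.3% lower. In 1 member, H2-Aa, every degenerated library lay below every control, as in 7.37% of all tested genes, and in 0 members above, as in 10.3% of all tested genes.

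**Figure D2:**
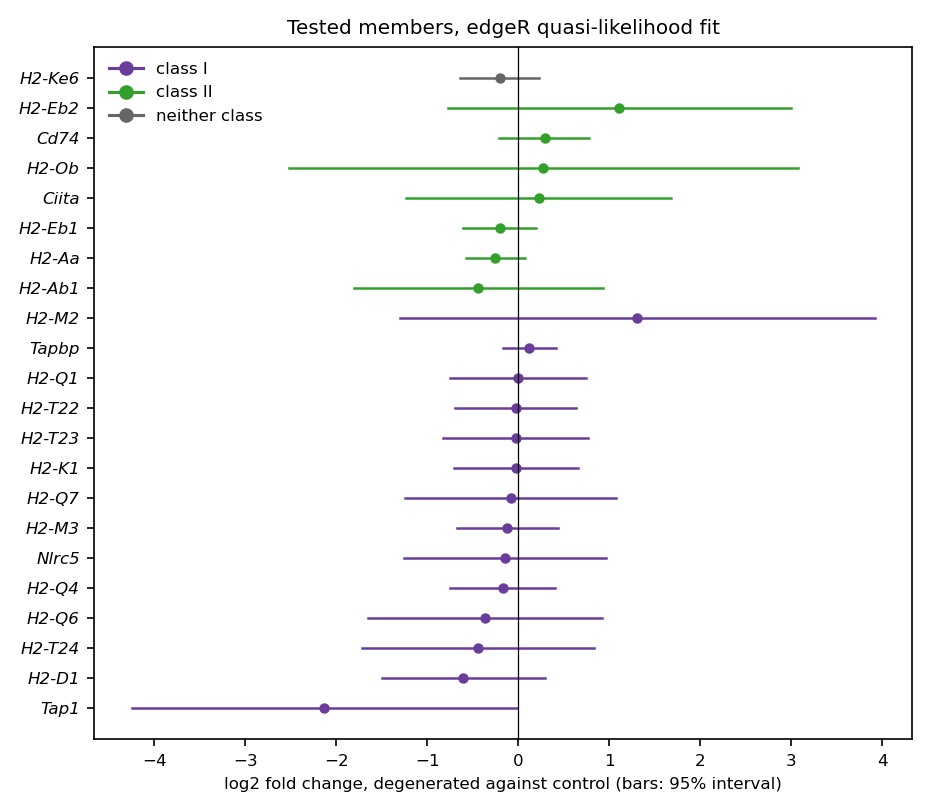
Log2 fold change of degenerated against control for the 22 tested genes, with the 95% interval of the quasi-likelihood fit (purple, class I; green, class II; grey, H2-Ke6). All intervals but that of Tap1, which runs from -4.25 to -0.01, cover 0, and they are widest for H2-Ob, H2-M2, Tap1 and H2-Eb2.

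Among the classical class I heavy chains, which present peptides to CD8+ T cells, H2-D1 (ENSMUSG00000073411, chromosome 17 from 35262730 to 35267499) had 754, 1363 and 1943 CPM in control replicates 1, 2 and 3, and 767, 764 and 1135 CPM in degenerated replicates 1, 2 and 3. The 2 groups overlapped, since control replicate 1 was below every degenerated library while control replicates 2 and 3 were above them. The log2 fold change was -0.61 (95% interval -1.50 to 0.29, standard error 0.37, edgeR adjusted p 0.651). Without control replicate 1 it was -0.90 (unadjusted p 0.0168 in edgeR's test), and over the leave-one-out fits it ran from -0.90 to -0.26. H2-K1, counted over 4 of its 16 transcripts, had 7.40 to 12.2 CPM in controls and 9.55 to 10.1 CPM in degenerated libraries, with a log2 interval of -0.71 to 0.66.

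Among listed transcripts, which for H2-K1 are minor ones, H2-D1 gave most of the class I heavy chain counts. It made up 71.9% to 84.1% of the heavy chain CPM in controls and 72.4% to 74.6% in degenerated libraries. All listed heavy chains together summed to 1049, 1789 and 2312 CPM in control replicates 1, 2 and 3 and to 1038, 1024 and 1568 CPM in degenerated replicates 1, 2 and 3. Without H2-D1 the sums were 295, 426 and 369 CPM in controls and 271, 261 and 432 CPM in degenerated libraries. Both sums overlapped between the groups, and both were low in control replicate 1 and in degenerated replicates 1 and 2. Class I genes are near copies of each other: of the 50-base words in the main H2-D1 transcript, 14.3% also occur in transcripts of other genes. That share was 32.0% in H2-Q6 and 37.9% of the words of a main H2-T22 transcript lay in H2-T10 alone, so that single heavy chain values are uncertain where reads were divided among copies.

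Among the non-classical class I genes the pattern over libraries differed from gene to gene. H2-Q6, which with H2-Q7 encodes the Qa-2 antigen, had 37.7, 88.6 and 44.3 CPM in controls and 30.2, 26.6 and 75.5 CPM in degenerated libraries. H2-Q7 had 14.6, 27.6 and 19.1 CPM in controls and 12.7, 12.4 and 32.8 CPM in degenerated libraries. H2-T24 had 20.5, 50 and 40.6 CPM in controls and 14.5, 22.0 and 45.2 CPM in degenerated libraries. In each of these 3 genes control replicate 2 and degenerated replicate 3 were the 2 highest libraries, the same 2 that were highest for the sums of B cell and of macrophage markers. The macrophage sum was led by Lyz2, which granulocytes also make, with 2164 CPM in control replicate 2 and 2283 CPM in degenerated replicate 3. The complement genes C1qb and C1qc of that list were lowest in control replicate 2, at 171 and 151 CPM. Control replicate 2 was also highest for the granulocyte and erythroid sums, and the part of any of these cells in the values was not tested. H2-Q4 ranged from 114 to 164 CPM in controls and from 107 to 169 in degenerated libraries. The log2 fold changes of these 4 genes lay between -0.44 and -0.08, and their intervals between -1.72 and 1.08.

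In H2-M3, H2-T23, H2-T22 and H2-Q1 the controls lay inside the range of the degenerated libraries. H2-M3, whose product presents formylated bacterial peptides and whose single transcript is listed, had 18.2, 17.3 and 18.8 CPM in controls and 19.5, 13.5 and 17.1 CPM in degenerated libraries, with a log2 fold change of -0.12 (interval -0.67 to 0.44). H2-T23, which encodes the Qa-1 ligand of natural killer cell receptors, had 9.98 to 10.9 CPM in controls and 7.40 to 14.7 CPM in degenerated libraries. H2-T22, a ligand of some gamma-delta T cells, had 32.9 to 43.9 and 26.7 to 50.7 CPM, and H2-Q1 23.1 to 27.5 and 17.4 to 36.4 CPM. The log2 fold changes of these 4 genes lay between -0.12 and 0. H2-M2 gave 16 counts in all controls and 37 in all degenerated libraries, too few for a narrow interval (-1.30 to 3.92). Of the non-classical genes below the filter, H2-T3, H2-M5, H2-M10.1, H2-M10.4, H2-M10.5, H2-M10.6 and H2-M11 had 0 counts in all 6 libraries, each of which allows up to 3 counts per library, and H2-M10.2 had 2 counts over controls and 10 over degenerated libraries. The H2-M10 genes are known from neurons of the vomeronasal organ, and H2-T3 from the intestinal epithelium.

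Of the class I partners, Tap1, a subunit of the peptide transporter, varied most. Its 1 listed transcript of 7, a retained-intron form, had 19, 209 and 205 counts in control replicates 1, 2 and 3 (1.26, 14.8 and 13.1 CPM) and 26, 31 and 34 counts in degenerated replicates 1, 2 and 3 (1.78, 2.18 and 2.68 CPM). Control replicates 2 and 3 were thus above all degenerated libraries and control replicate 1 was below them. The log2 fold change was -2.13 (interval -4.25 to -0.01, standard error 0.87, edgeR adjusted p 0.516). Without control replicate 1 the value was -2.66 and Tap1 met the criteria (edgeR unadjusted p 0.000452, adjusted p 0.128). Without any 1 of the other libraries the values ran from -2.29 to -1.69, with unadjusted p of 0.0921 to 0.134 from edgeR. Tap2, the other subunit, had 5 counts over controls and 4 over degenerated libraries in 2 of its 5 transcripts and was not tested.

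Tapasin and the class I activator differed by less than the spread between replicates. Tapbp had 285, 249 and 268 CPM in controls and 300, 254 and 321 CPM in degenerated libraries, a log2 fold change of 0.12 with the narrowest interval of all members (-0.17 to 0.42). Nlrc5 (chromosome 8 from 94434356 to 94527272, 6 of 9 transcripts listed) had 16.3, 8.70 and 24.2 CPM in controls and 19.6, 9.58 and 15.4 CPM in degenerated libraries. Its log2 fold change was -0.15 (interval -1.26 to 0.96), and the groups overlapped. H2-Ke6, which by its position carries an MHC symbol but encodes a steroid dehydrogenase, had 33 to 43 and 30.9 to 36.5 CPM, and 79.8% of the words of its main transcript also lie in an overlapping gene.

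The class II chains, which present peptides to CD4+ T cells, had log2 fold changes just below 0 in their well-counted members, H2-Aa and H2-Eb1, and neither passed the test. H2-Aa, the alpha chain of I-A (ENSMUSG00000036594, chromosome 17 from 34282744 to 34287823), had 250, 259 and 282 CPM in control replicates 1, 2 and 3 and 188, 229 and 248 CPM in degenerated replicates 1, 2 and 3. The groups did not overlap, although the gap between control replicate 1 and degenerated replicate 3 was small. The main transcript alone, with 97.4% of the counts, did not separate them. It had 3696 counts in control replicate 1 and 3103 in degenerated replicate 3, level once scaled to their effective library sizes (15107115 and 12670218). Over all listed transcripts the log2 fold change was -0.25 (interval -0.57 to 0.07, standard error 0.13, edgeR adjusted p 0.608). H2-Eb1, the beta chain of I-E, had 209, 167 and 216 CPM in controls and 141, 195 and 178 CPM in degenerated libraries, which overlapped, with a log2 fold change of -0.20 (interval -0.61 to 0.20). C57BL/6 mice make no I-E alpha chain, and the symbol for it, H2-Ea-ps, is a polymorphic pseudogene in the annotation. H2-Ab1, the beta chain of I-A, was counted from 1 retained-intron transcript of 8, at 1.19 to 3.04 CPM in controls and 0.752 to 2.05 CPM in degenerated libraries. H2-Eb2 had 23 counts over controls and 46 over degenerated libraries.

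Cd74, the invariant chain, had a log2 fold change above 0 that did not pass the test either. It had 280, 347 and 403 CPM in control replicates 1, 2 and 3 and 335, 413 and 508 CPM in degenerated replicates 1, 2 and 3, from 1 of its 5 transcripts. The groups overlapped, and the log2 fold change was 0.29 (interval -0.21 to 0.78, standard error 0.20, edgeR adjusted p 0.697). Set against H2-Aa in the same library, Cd74 did not overlap between the groups. The ratio of Cd74 to H2-Aa counts was 1.12, 1.34 and 1.43 in control replicates 1, 2 and 3 and 1.78, 1.8 and 2.05 in degenerated replicates 1, 2 and 3, or 1.3 ± 0.158 against 1.88 ± 0.151 (SD, n = 3 each). Against H2-Eb1 it was 1.34, 2.08 and 1.87 in controls and 2.38, 2.12 and 2.85 in degenerated libraries. Against Tapbp it overlapped, at 1.29 ± 0.273 in controls and 1.44 ± 0.28 in degenerated libraries (SD, n = 3 each). The ratio of the 2 chains to each other overlapped as well, with H2-Aa to H2-Eb1 at 1.35 ± 0.183 in controls and 1.3 ± 0.112 in degenerated libraries (SD, n = 3 each).

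Ratios within a library do not depend on its depth or normalization. This pair of genes was picked after its values were seen, and the ratios are given as a description without a test. H2-Aa by itself lay lower in every degenerated library, which enters its ratio. Cd74 and H2-Eb1 were each counted from 1 of 5 transcripts, so that the ratios cover listed transcripts only. The share of other gene pairs whose ratios separate the groups was not computed. With the main H2-Aa transcript alone, the Cd74 to H2-Aa ratio was 1.15, 1.35 and 1.56 in controls and 1.79, 1.81 and 2.07 in degenerated libraries.

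**Figure D3:**
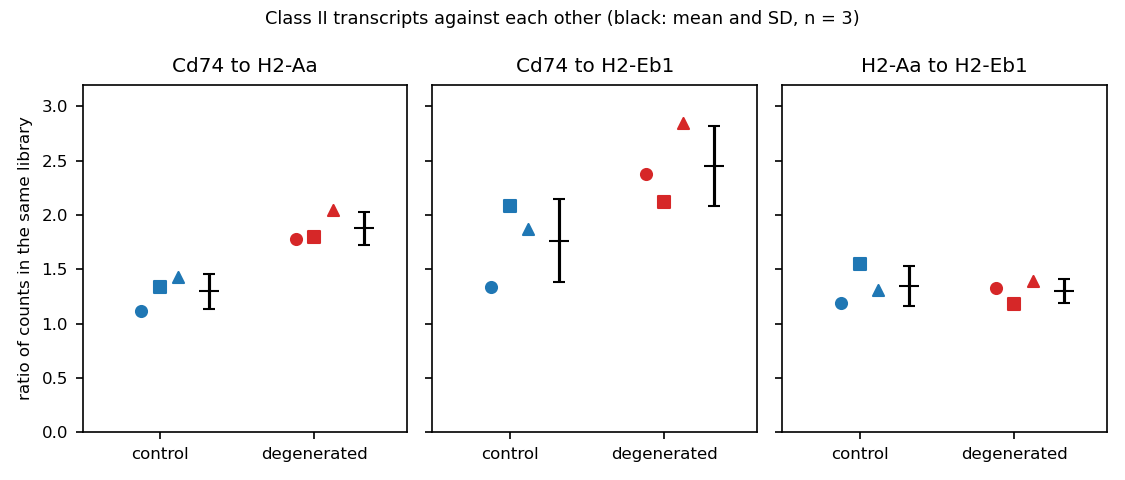
Ratio of counts of 2 class II pathway genes in the same library, for the 3 control (blue) and 3 degenerated (red) libraries, with the mean and SD in black. Cd74 is higher relative to H2-Aa and to H2-Eb1 in every degenerated library than in every control, while the ratio of H2-Aa to H2-Eb1 overlaps.

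The remaining class II genes varied widely between libraries or had few counts. H2-Ob, the beta chain of H2-O, which restrains peptide exchange and is typical of B cells, had 0.794, 25.7 and 7.47 CPM in control replicates 1, 2 and 3 and 6.29, 9.37 and 25.4 CPM in degenerated replicates 1, 2 and 3. Control replicate 1 was lowest and control replicate 2 and degenerated replicate 3 highest, as for the summed B cell markers, with a 32.3-fold range among controls. The summed macrophage markers, led by Lyz2, had the same lowest and 2 highest libraries, but C1qb and C1qc of that list were lowest in control replicate 2. The part of these cells in the values was not tested. The log2 fold change of H2-Ob, 0.27, had an interval of -2.52 to 3.07, with 1.72 when control replicate 2 and -0.53 when degenerated replicate 3 was left out. Ciita (chromosome 16 from 10480059 to 10528418, 1 of 8 transcripts listed) had 5.96, 11.5 and 9.51 CPM in controls and 3.63, 10.4 and 17.5 CPM in degenerated libraries. Its log2 fold change was 0.23 (interval -1.23 to 1.68), and the degenerated libraries enclosed the controls. Of the H2-DM genes, H2-DMb2 had 3, 13 and 238 counts in controls and 1, 6 and 2 counts in degenerated libraries, nearly all from control replicate 3, and H2-DMb1 had 15 counts over controls and 16 over degenerated libraries. Both were below the filter on low counts.

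**Figure D4:**
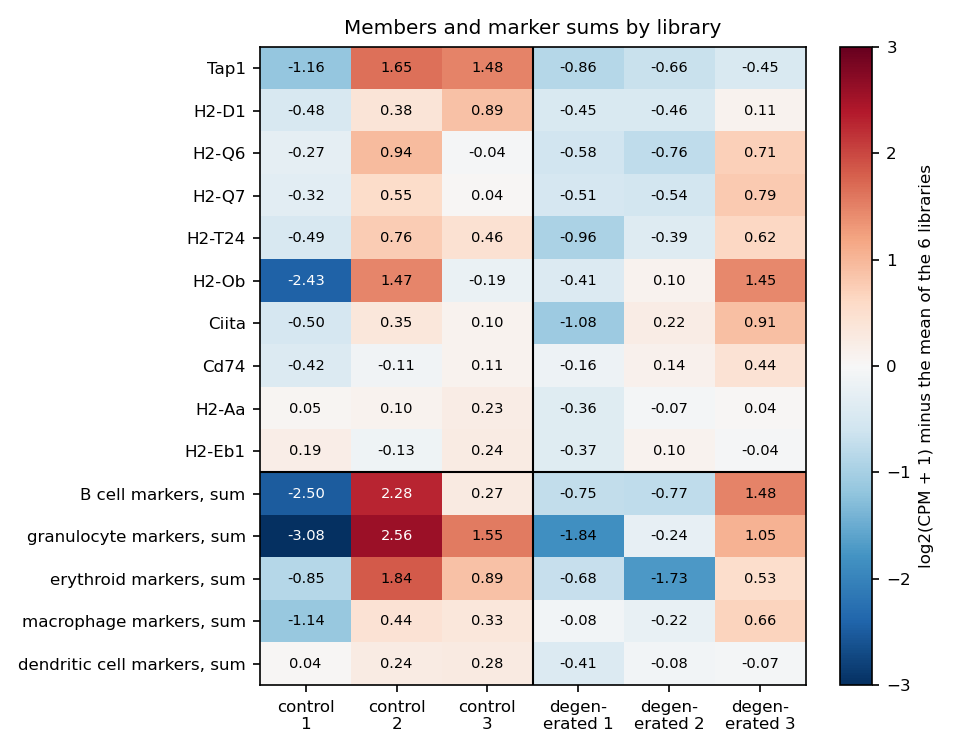
Log2(CPM + 1) of 10 antigen presentation genes and of summed marker lists in each library, minus the mean of the 6 libraries (red, higher; blue, lower). The lowest library and the 2 highest libraries for H2-Ob (-2.43 in control replicate 1, 1.47 in control replicate 2 and 1.45 in degenerated replicate 3) are those of the B cell sum and of the macrophage sum, while H2-Aa stays between -0.36 and 0.23. The macrophage sum is led by Lyz2, which granulocytes also make, and C1qb and C1qc of that list are lowest in control replicate 2.

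Markers of the cells that could carry these genes were read beside them. Of 10 dendritic cell markers, 9 were tested, 2 higher and 7 lower, and 0 met the criteria. Their sum was 108 to 128 CPM in controls and 78.9 to 100 CPM in degenerated libraries, which did not overlap. The gene with the highest CPM in that list was Flt3, at 58.3 ± 7.45 CPM in controls against 39.3 ± 6.75 CPM after degeneration (SD, n = 3 per group, edgeR adjusted p 0.434), followed by Zbtb46 and Itgax, whose groups overlapped. Only Flt3 in that list did not overlap between the groups, and 7.37% of all tested genes lay lower in this way. Flt3 was highest in control replicate 1 (66.9 CPM), and without it the marker sums of the groups overlapped. The part of dendritic cells in the H2-Aa values was not tested. Macrophage markers summed to 861 to 2581 CPM in controls and 1635 to 2994 CPM in degenerated libraries, led by Lyz2, which granulocytes also make. Of the 6 tested genes of that list, 4 were higher and 2 lower, and the complement genes C1qb and C1qc met the criteria as upregulated, as did 2.01% of all genes: C1qb had 203, 171 and 175 CPM in controls and 324, 247 and 311 CPM in degenerated libraries, or 0.69 on the log2 scale (interval 0.34 to 1.03, edgeR adjusted p 0.297), and C1qc rose by 0.63 on the log2 scale. The log2 fold changes of the others were 1.85 for Cx3cr1, 0.19 for Mrc1, -0.01 for Lyz2 and -1.54 for Cd68, and Aif1, which was not tested, had 228, 1 and 254 counts in controls and 2, 0 and 0 counts in degenerated libraries. C1qb and C1qc both lost the call without any 1 of control replicates 2 and 3 and degenerated replicates 1 and 3, and C1qc also without control replicate 1. The ratio of C1qb to H2-Aa counts was 0.620 to 0.812 in controls and 1.08 to 1.72 in degenerated libraries, and that of C1qb to Cd74 was 0.433 to 0.723 and 0.598 to 0.966, which overlapped. In the B cell list 0 of 5 tested genes, in the T and natural killer cell list 0 of 9, in the granulocyte list 0 of 8, in the erythroid list 0 of 5, in the endothelial list 0 of 4 and in the Schwann cell list 0 of 7 met the criteria in edgeR's test. Over all tested genes 2.73% met them. T and natural killer cell markers summed to 21.8 to 55.0 CPM in controls and 27.3 to 49.4 CPM in degenerated libraries, and the skeletal muscle list had 1 call, Pvalb, which is also an SGN marker. Other muscle RNA stood almost wholly in control replicate 3, with 857 Acta1, 1455 Ckm and 1618 Myh4 counts there against at most 20, 11 and 6 in any other library. That library was also the highest for H2-D1 and H2-DMb2, and without it the log2 fold change of H2-D1 was -0.26. The part of muscle in these values was not tested.

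Other genes of the 2 pathways gave 1 call. Of 18 class I pathway genes (immunoproteasome, chaperones, translocon and related heavy chains), 12 were tested, 4 higher and 8 lower. Among them Sec61a1, a subunit of the channel through which heavy chains enter the endoplasmic reticulum, was upregulated, as were 2.01% of all genes. It had 341, 273 and 289 CPM in controls and 441, 397 and 477 CPM in degenerated libraries, or 0.54 on the log2 scale (interval 0.23 to 0.86, edgeR adjusted p 0.333). It missed the criteria without control replicate 2 or 3 or degenerated replicate 1 or 3, with log2 fold changes of 0.47 to 0.53, and with the replicate block (0.55). Pdia3, the thiol oxidoreductase of the loading complex, had 818 to 1319 CPM in controls and 1118 to 1406 CPM in degenerated libraries. Psmb10, an immunoproteasome subunit, had 7.5 to 14.5 CPM in controls and 7.59 to 8.03 CPM in degenerated libraries. These came from 3 of its 7 transcripts, none of them protein-coding, so that they are not levels of the coding RNA. Of 19 class II pathway symbols (endosomal proteases, regulators and costimulators, with March1 under both of its names), 15 were tested, 10 higher and 5 lower, with 0 calls. At an unadjusted p under 0.05 in edgeR's test there were 2, against 9.68% of all genes. One was Ctsb, the protease cathepsin B, with a log2 fold change of 0.30 (interval 0.04 to 0.57). Its degenerated libraries all lay above its controls, as in 10.3% of all tested genes. The other was March1, a ubiquitin ligase that takes class II off the cell surface, with 1.41 (interval 0.07 to 2.75, groups overlapping). March1 met the criteria without degenerated replicate 1, at 1.78.

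Genes upstream of the MHC in interferon signalling gave 0 calls among the 10 tested of 15, against 2.73% of all tested genes. Of the 15, 13 had a listed transcript, several of them with only a part of their transcripts listed. Their sum was 335 to 360 CPM in controls and 340 to 400 CPM in degenerated libraries, led by Ifngr1, Irf9 and Irf2, and the listed Ifng transcript, 1 of 2 and not the coding one, was at 0 counts in all 6 libraries, which gives no value for the coding RNA. Irf1, a direct activator of class I genes, had 2.78, 8.49 and 0.255 CPM in controls and 4.86, 0.211 and 0 CPM in degenerated libraries, from 2 of its 10 transcripts. The groups overlapped, and its log2 fold change of -1.17 had an interval of -5.45 to 3.11.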

How the data were processed

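RNA of the modiolus was measured in 6 libraries, 3 control and 3 degenerated. The authors aligned the reads with Hisat2 and evaluated expression with StringTie, and the submitters' processing notes also name Bowtie 0.12.2 and the builds mm8 and mm10. The annotation and the counting step behind the table are not named in those sources. The authors deposited whole-number counts per Ensembl transcript, without normalization. Each column was matched to its sample by title. Transcripts were assigned to genes by GENCODE M21 and summed (263 transcripts with 0.125% of counts did not match). The main test, on genes passing filterByExpr, was that of edgeR 4.0.16 under R 4.3.3 (TMM, robust quasi-likelihood F test, no covariates), and DESeq2 1.42.0 and limma-voom (limma 3.58.1) were alternatives, with other normalizations and filters, the replicate number as a block, each library left out, and, chosen after the data were seen, protein-coding transcripts only. The standard error is the log2 fold change over the root of F. TPM used exon lengths. Total counts per library set the counting precision, and 0 counts allow up to 3, which covers counting error only. The test was tested on simulated data. The members, lists and motifs were chosen with earlier results of these data known. Named genes are all members with counts, and from each other list the called genes, those with the highest CPM and, for the 2 pathway lists, those at an unadjusted p under 0.05. Psmb10, Irf1, Ifng, Cd68, Cx3cr1, Mrc1, Aif1, Acta1, Ckm, Myh4 and the ratios were named after their values were seen. A gene of the interferon list is not reported here.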

Additional observations from a re-analysis of the deposited data

How the results depend on the processing

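Over the 14 other settings, 0 class I or class II members met the criteria, with 1 exception: Tap1 without control replicate 1, so that the count of downregulated class I members ran from 0 to 1 over the leave-one-out fits. H2-DMb2, not tested in the report, reached an unadjusted p of 0.0344 in edgeR's test without a filter and 0.0134 without control replicate 1, short of the criteria. Of the members' log2 fold changes, 276 kept their sign and call and 27 changed sign, none of these past the criteria. Those were, with limma-voom, H2-K1 (0.01) and Ciita (-0.01), with protein-coding transcripts only, H2-K1 (0.58), H2-Q1 (1.55) and H2-T22 (0.00), with the replicate block, H2-K1 (0.00), and, leaving out libraries, H2-K1 (-0.22 to 0.14), H2-Q1 (-0.36 to 0.21), H2-Q6 (-1.0 to 0.10), H2-Q7 (-0.70 to 0.19), H2-T23 (-0.37 to 0.16), H2-T22 (-0.29 to 0.16), H2-M3 (-0.26 to 0.00), Nlrc5 (-0.45 to 0.24), H2-Ab1 (-0.81 to 0.07), Ciita (-0.36 to 0.63) and H2-Ob (-0.53 to 1.72). Over all genes, 284 upregulated and 101 downregulated became 488 and 315 with DESeq2 and 184 upregulated with protein-coding transcripts only (10490 genes tested), and leaving out libraries gave 144 to 339 and 76 to 158. The labels do not say whether same-numbered libraries belong together. Their deviations correlated at 0.16, -0.0905 and 0.0674, which cannot decide it, since differently numbered pairs were not compared. With the number as a replicate block the counts were 160 and 58, and Cd74 reached an unadjusted p of 0.0472 (log2 fold change 0.28) in edgeR's test. The cause of these shifts was not tested. Low listed counts limit H2-M2, H2-Eb2, H2-Ab1 and the H2-DM genes.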

Other observations

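Symbols that begin with H2- but are not protein-coding in the annotation were outside the comparison, and 6 of these 11 had counts. H2-K2 had 91, 88 and 11 counts in control replicates 1, 2 and 3 and 104, 77 and 145 counts in degenerated replicates 1, 2 and 3. H2-Q5 had 49, 113 and 8 counts in controls and 25, 54 and 162 counts in degenerated libraries. H2-T10 had 41, 70 and 82 counts in controls and 50, 31 and 34 counts in degenerated libraries. Control replicate 3 was the lowest library for H2-K2 and H2-Q5, and it was the highest for H2-D1.

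The same library stood apart in single class I transcripts of the members. A protein-coding H2-K1 transcript (ENSMUST00000173075) had 81, 56 and 0 counts in control replicates 1, 2 and 3 and 85, 67 and 41 counts in degenerated replicates 1, 2 and 3, and the coding H2-Q1 transcript (ENSMUST00000105041) had 103, 58 and 0 counts in controls and 225, 119 and 111 counts in degenerated libraries. Of their 50-base words, 10.6% and 23.8% also occur in other genes. In H2-Aa, the shorter coding transcript ENSMUST00000174751 had 365 counts in control replicate 3 and 12 to 67 counts in the other libraries, and the main transcript had 2734 to 4045 counts in every library.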
